A study of Mus musculus with 12 samples.

Results

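The scaffold gene Ksr1 and 6 core genes of the Ras-Raf-MEK-ERK cascade (Hras, Nras, Araf, Map2k1, Map2k2 and Mapk3) were examined on 12 Affymetrix arrays. Members were all probe sets whose platform annotation gives one of these symbols, or an older synonym, as their single gene. This rule found 8 of the 12488 probe sets, which belong to 5 of the 7 genes (the annotation names 8251 genes with a probe set of their own): Ksr1, Nras and Map2k1 with a pair of probe sets each, and Araf and Map2k2 with 1 each. No probe set in that annotation is listed under Hras or Mapk3, so the transcript of the introduced H-Ras and that of ERK1 were not analysed here.

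All 4 groups were mouse embryonic fibroblasts of the genotype KSR1-/- on the DBA background strain, and all carried GFP. The GFP line carried nothing else, the H-RasV12 line carried oncogenic H-RasV12, the KSR1 line carried KSR1, and the line called here the double line carried KSR1 and H-RasV12. Each line was represented by 3 arrays, numbered replicate 1 to 3. There was 1 cell line per condition and nothing states that its arrays came from separate cultures, so p-values measure the spread between arrays, which may be technical. The vector, its promoter, the species of the introduced sequences and the exons missing from the null allele are not given in the sources used here.

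In this cascade a GTP-loaded Ras protein at the plasma membrane recruits a Raf kinase, Raf phosphorylates MEK, and MEK phosphorylates ERK. KSR1 is related in sequence to Raf and acts mainly as a scaffold, holding Raf, MEK and ERK together at the membrane. The V12 mutation keeps H-Ras in its GTP-bound state. The pathway is controlled largely by protein binding and phosphorylation, which transcript arrays do not measure.

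Levels below are MAS5 signals, the array software's linear intensity for a probe set, given per array or as mean ± SD (n = 3). Differences are on the log2(signal + 23) scale with their standard error (SE) or 95% interval, and adjusted p-values are from limma with Benjamini-Hochberg adjustment over the 6897 probe sets tested. Calls were made where the adjusted p was under 0.05. Of the 8 member probe sets 7 passed the filter on dim signals and were tested. Every array had a 2% trimmed mean of 500.3, and arrays of the same line correlated with r between 0.911 and 0.965. Of 12 fibroblast markers 10 passed the filter, while Vim (group means from 73.6 to 90.7) and Thy1 (from 11 to 27.2) did not. The summed signal of the 12 markers, taking the brightest probe set of each, lay between 57784 and 74526 in the GFP line, 55244 and 76690 in the H-RasV12 line, 40716 and 42597 in the KSR1 line, and 22448 and 35737 in the double line. Single markers went other ways: from the GFP to the KSR1 line Dcn went from a mean of 2807 to 5751, Pdgfra (95079_at) from 1433 to 1963 and S100a4 from 11434 to 12787, while the collagens and Sparc carried the fall of the sum. Of 7 epithelial markers 2 passed the filter, Krt19 and Cdh1. The summed signal of all 7 was 681 to 979 in the GFP line and 1687 to 2090 in the double line. Krt19 carried this rise, with means of 118, 90.2, 418 and 1209 in the GFP, H-RasV12, KSR1 and double lines. In the same order Cdh1 had means of 580, 525, 758 and 595, and Epcam lay at 6.65 to 13.5. The part of these marker levels in the results below was not tested.

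Ksr1 was measured by probe sets 92765_s_at and 92764_at, and the first of them separated each line given KSR1 from its counterpart without KSR1. With 92765_s_at the KSR1 arrays read 933, 1605 and 207, and the double-line arrays read 301, 262 and 141. The GFP arrays read 144, 21.1 and 37.5, and the H-RasV12 arrays read 20.2, 32.2 and 14.2. The lowest of the 6 arrays with introduced KSR1, double-line replicate 3, lay just below the highest of the others, GFP replicate 1, and apart from this pair the sets of arrays did not overlap. Within each of those comparisons, KSR1 against GFP and the double line against H-RasV12, the groups did not overlap, as for 30.7% and 29.3% of all probe sets tested. Its signal rose with KSR1 against GFP by 3.22 ± 0.62 (SE, 95% interval 1.89 to 4.54, limma adjusted p = 0.00309). The size of this rise depends on the array and the pseudocount: leaving out KSR1 replicate 2 made it 2.62, leaving out KSR1 replicate 3 made it 4.03, and it was 2.35 with a pseudocount of 100, and called in each. It also rose in the double line against H-RasV12 by 2.47 ± 0.62 (1.15 to 3.79, limma adjusted p = 0.0136, 0.0524 without double-line replicate 2, 0.0598 with replicates 2 and 3 alone and, at 1.42, 0.0519 with a pseudocount of 100). The probe set was above the filter on 5 arrays, all of lines given KSR1, so it entered the test through the groups where it is high, and its calls are a description of that. In these bulk samples fewer cells with a transcript and less of it per cell cannot be told apart. The s suffix is Affymetrix's mark for probe sets whose probes can match several transcripts.

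The arrays of the KSR1 line did not give one level for 92765_s_at. Its SD, 699, was 76.4% of its mean of 915, against 35.6% in the double line (235 ± 83.6). In order of their means the lines ran KSR1, double, GFP (67.4 ± 66.5) and H-RasV12 (22.2 ± 9.14), and no neighbours in this order differed past the threshold. The double line was lower than the KSR1 line by a mean of 1.52 ± 0.62 (SE) that did not pass (limma adjusted p = 0.124), and KSR1 replicate 3, at 207, lay below 2 of the 3 double-line arrays. Without that array the same difference was called (-2.33 ± 0.52, limma adjusted p = 0.00910, with a range of 0.00910 to 0.446 over all alternatives). Against GFP the double line was 1.70 ± 0.62 higher without a call (limma adjusted p = 0.0835), and it was called without GFP replicate 1 (2.26 ± 0.62, limma adjusted p = 0.0245), without KSR1 replicate 3 (0.0236) and with array weights (0.0373). On GFP replicate 1 the 18S ribosomal RNA control read 345, against 1427 and 516 on the other GFP arrays. Over all 12 arrays this control ran from 146 (double-line replicate 1) to 3312 (KSR1 replicate 2). The part of array quality in the Ksr1 signal of GFP replicate 1 was not tested.

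**Figure D1:**
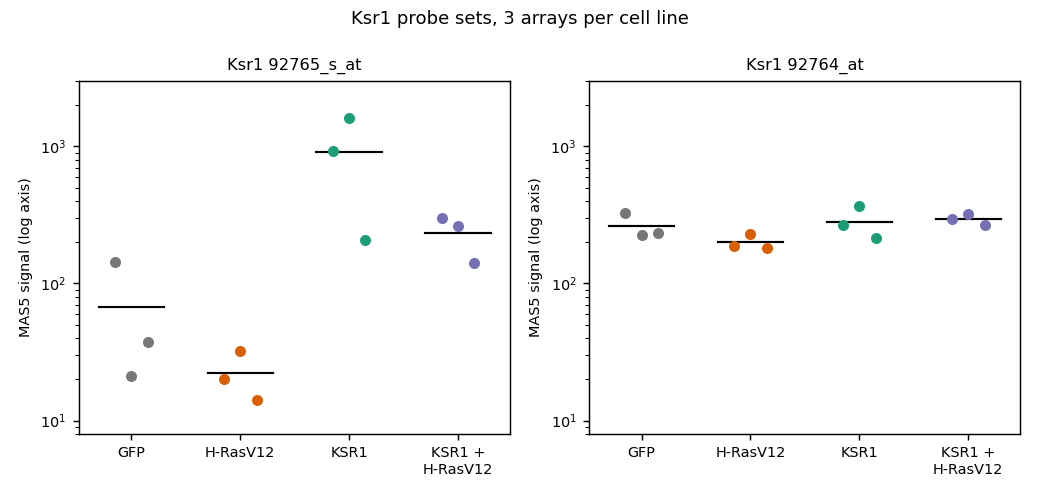
MAS5 signal (log axis) of the Ksr1 probe sets on each array, by cell line, with a bar at the mean of 3 arrays. For 92765_s_at the 6 arrays of the lines with KSR1 lie between 141 and 1605 and the other 6 between 14.2 and 144, whereas for 92764_at all 12 arrays lie between 180.2 and 366.

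Probe set 92764_at, annotated from the mouse Ksr1 sequence U43585, stayed within a narrow band in all lines. It read 324, 225 and 232 with GFP, 188, 231 and 180.2 with H-RasV12, 266, 366 and 216 with KSR1, and 294, 324 and 265 in the double line. The groups overlapped in each comparison except the double line against H-RasV12, where every double-line array was higher (0.51 ± 0.23, 95% interval 0.01 to 1.01) without passing the test (limma adjusted p = 0.173). For KSR1 against GFP the difference was 0.10 (95% interval -0.40 to 0.60), whose upper end is 1.51-fold. Since it is not known here which part of the transcript either probe set reads, the signal of 92764_at in the GFP line says nothing about the null allele. Across the 12 arrays the Ksr1 probe sets correlated with r = 0.78, over arrays that fall into 4 lines, and the difference between their responses was not tested.

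The probe sets most like 92765_s_at over the 12 arrays, among 6248 tested ones with a single gene, were those of Pim3 (r = 0.94), a serine/threonine kinase, Dmpk (0.93), the myotonic dystrophy protein kinase, Glrx (0.92), a glutaredoxin, Mfge8 (0.91), a secreted milk fat globule protein, and Sinhcaf (0.90). Glrx read 3806, 3375 and 3045 on the KSR1 arrays, between 1051 and 1323 in the double line, and between 399.5 and 875 in the lines without introduced KSR1. The levels of Glrx in the KSR1 line were thus within 1.25-fold of each other where those of 92765_s_at spanned 7.74-fold. For 92764_at the closest were Sncb (r = 0.85), Diaph1 (0.83) and Ints7, Gatad2a and Srxn1 (0.82 each). These likenesses are descriptions of 4 cell lines.

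Nras encodes N-Ras, a close relative of H-Ras, and its probe sets did not move together. With 94362_at, the brighter, the GFP arrays read 1444, 1897 and 1576.5, the H-RasV12 arrays 1976, 2211 and 2521, the KSR1 arrays 2050.4, 2134 and 2188, and the double-line arrays 1789, 1538 and 1982. Every H-RasV12 array and every KSR1 array lay above every GFP array, and every double-line array lay below every KSR1 array. None of these differences passed the test: 0.44 ± 0.17 for H-RasV12 (limma adjusted p = 0.691), 0.38 ± 0.17 for KSR1 (0.183) and -0.27 ± 0.17 for the double line against KSR1 (0.338). The response to H-RasV12 with KSR1 minus that without it, the interaction, was -0.71 ± 0.24 (95% interval -1.23 to -0.20), also short of a call (limma adjusted p = 0.0949). Over all probe sets tested the groups did not overlap for 12% in H-RasV12 against GFP and for 28% in the double line against KSR1.

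The other Nras probe set, 160925_at, read 400.1, 441 and 383 with GFP, 262, 419 and 386 with H-RasV12, 484, 429 and 491 with KSR1, and 644, 359 and 380.3 in the double line. The lines overlapped in every comparison, least for KSR1 against GFP, where only GFP replicate 2 reached the KSR1 range. Its difference for H-RasV12 against GFP, -0.21 (95% interval -0.71 to 0.29), had the opposite sign to that of 94362_at, and its interaction was 0.14 (-0.56 to 0.85). Across the 12 arrays the Nras probe sets correlated with r = 0.07.

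Araf encodes one of the Raf kinases, the first kinases of the cascade. Its probe set 102286_at read 385, 244 and 362 with GFP, 486, 288 and 312 with H-RasV12, 219.7, 325 and 299 with KSR1, and 433, 383 and 207 in the double line. The lines overlapped in every comparison, and the group SDs, from 54.9 to 118, stand beside group means from 281 to 362. Its 95% intervals ran from 0.564-fold to 1.33-fold for KSR1 against GFP and from 0.704-fold to 1.66-fold for H-RasV12 against GFP.

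Map2k1, which encodes MEK1, was the only member besides Ksr1 that was called, through its probe set 92585_at. The double-line arrays read 1300.1, 1331 and 1526, above all 9 other arrays. The KSR1 arrays read 1059.6, 1293 and 871, the GFP arrays 869, 1048 and 741, and the H-RasV12 arrays 726, 942 and 713. The double line exceeded H-RasV12 by 0.79 ± 0.20 (SE, 95% interval 0.37 to 1.22, 1.73-fold, limma adjusted p = 0.0127) and GFP by 0.64 ± 0.20 (0.22 to 1.06, 1.56-fold, limma adjusted p = 0.0393), and 28.2% of all probe sets did not overlap in the latter comparison. It also lay above the KSR1 line on every array, by 0.37 ± 0.20, without a call (limma adjusted p = 0.237), and the interaction of 0.53 ± 0.28 did not pass (0.318).

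Both Map2k1 calls depended on single arrays. The call against H-RasV12 ended without H-RasV12 replicate 1 (limma adjusted p = 0.0560), or replicate 3 of that line (0.0569), and when only replicates 2 and 3 were fitted (0.0756). The call against GFP ended in 9 of 22 alternatives, with limma adjusted p from 0.0502 to 0.167 in these: without GFP replicate 1 or 3, H-RasV12 replicate 3, KSR1 replicate 1, or double-line replicate 2 or 3, and with no filter, no intensity trend, or only replicates 2 and 3. The double line was also the line with the lowest summed fibroblast markers and the highest summed epithelial ones, the latter through Krt19, as given above. The probe sets whose profile was most like that of 92585_at were those of Ak4 (both of its probe sets), Tpi1, Pgk1 and Diaph1.

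The other Map2k1 probe set, 162082_r_at, was dim on every array, from 5.43 to 27.3, and below the filter. The r suffix marks probe sets for which Affymetrix relaxed its probe selection rules. In the fit without a filter its largest difference, the double line against GFP, was 0.42 ± 0.22 (limma adjusted p = 0.361), and none of its differences was called.

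Map2k2, which encodes MEK2, the close relative of MEK1, had the smallest span of the 8 probe sets. Its probe set 92543_at read 354, 444 and 390.0 with GFP, 353, 445 and 557 with H-RasV12, 358, 433 and 427 with KSR1, and 509, 429 and 508 in the double line. The highest array was 1.58-fold above the lowest, and every pair of lines overlapped. The double line differed from H-RasV12 by 0.11 (95% interval -0.31 to 0.53), where Map2k1 differed by 0.79. The difference between these responses was not tested.

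**Figure D2:**
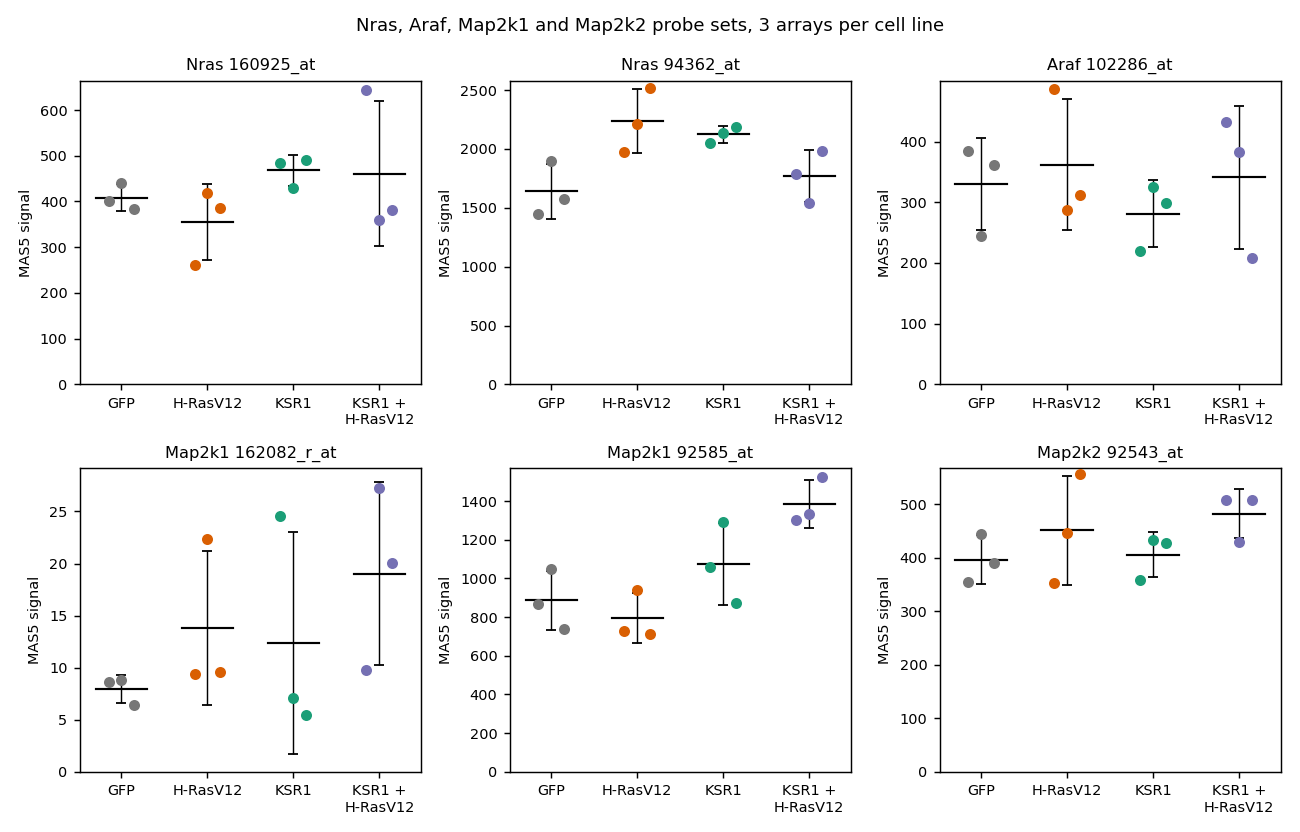
MAS5 signal of the Nras, Araf, Map2k1 and Map2k2 probe sets on each array (points), with the mean and SD of 3 arrays per line (bar and whisker), on axes that start at 0. For Map2k1 92585_at the 3 double-line arrays, at 1300.1 to 1526, lie above the other 9, while for Araf and Map2k2 the lines overlap.

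Counted over the members, few comparisons gave a call. For H-RasV12 against GFP 0 of 7 tested member probe sets were called by limma, where 0.0725% of all probe sets were, and 1 of the 7 had an unadjusted p under 0.05. For KSR1 against GFP 1 of 7 was called (Ksr1 92765_s_at), against 11.8% of all. For the double line against H-RasV12 2 of 7 were called, both higher (Ksr1 92765_s_at and Map2k1 92585_at), against 14.8% of all and 7.1% called higher. For the double line against GFP 1 of 7 was called (Map2k1 92585_at), against 15.6%. For the double line against KSR1 (15.1% of all) and for the interaction (7.7%), 0 of 7 were called by limma and 1 of 7 in each had an unadjusted p under 0.05. A single call among 7 probe sets is near these background shares, and Ksr1 92765_s_at had passed the filter only through the lines where it is high. Over the 6 comparisons the median absolute log2 difference of the members lay between 0.17 and 0.42, beside 0.16 to 0.36 over all probe sets tested. Several comparisons share their arrays: the GFP arrays enter 4 of the 6, the interaction included.

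**Figure D3:**
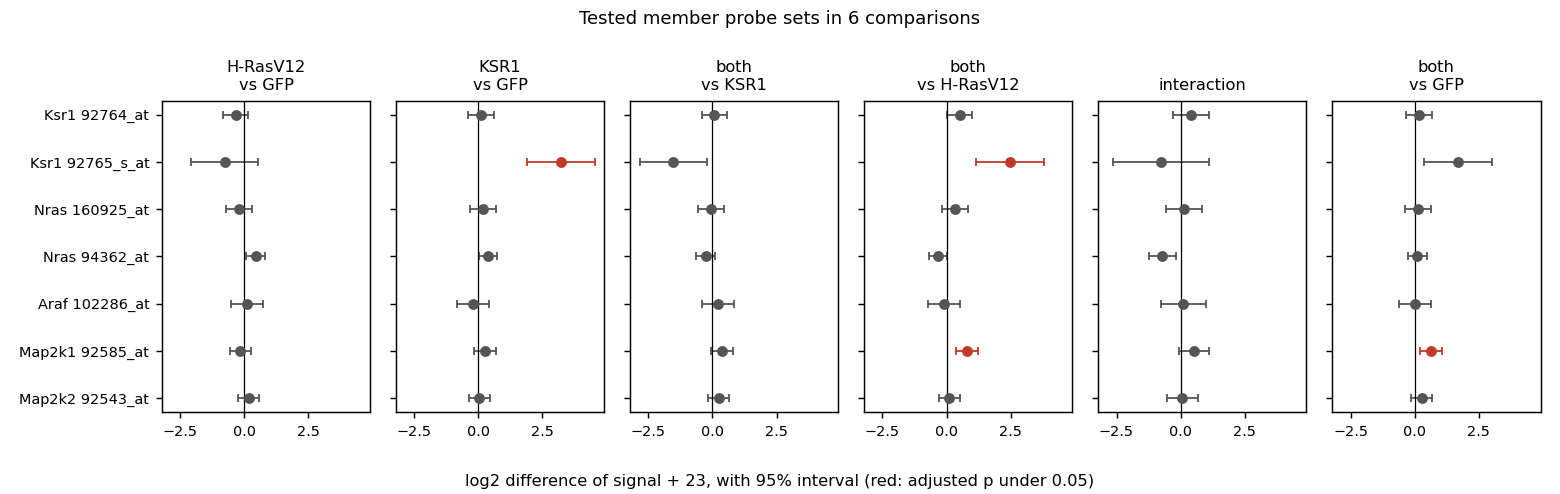
Log2 difference with its 95% interval for each of the 7 tested member probe sets (rows) in the 6 comparisons (panels), with called ones in red; in the panel headings "both" is the double line. Ksr1 92765_s_at lies at 3.22 and 2.47 in the comparisons that add KSR1, with the widest intervals, and Map2k1 92585_at is red in the panels of the double line against H-RasV12 and against GFP.

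The rest of the pathway was taken from 6 lists of 128 genes (other Ras GTPases and their lipid-anchoring enzymes, receptors and Ras regulators, other kinases, scaffolds and KSR1 partners, other Ras effectors, and ERK substrates). Of these, 103 genes had 154 probe sets, and 110 probe sets of 84 genes were tested. For H-RasV12 against GFP limma called 0 of the 110 (1 with array weights), and 5 had an unadjusted p under 0.05. For KSR1 against GFP 6 were higher and 2 lower (7.27% called). The higher count was 2 without GFP replicate 3 or KSR1 replicate 2, and the lower count 1 without GFP replicate 2 or 3 or KSR1 replicate 3. Against KSR1 the double line had 5 higher and 11 lower (14.5%). Leaving out KSR1 replicate 2 or double-line replicate 2 gave a higher count of 3, leaving out KSR1 replicate 3 gave 2, and the lower count 7 without KSR1 replicate 1 or 2. Against H-RasV12 6 were higher and 9 lower (13.6%). The higher count fell to 2 when H-RasV12 replicate 1 was left out, to 3 when replicate 3 of either line was, and to 1 when double-line replicate 2 was, and the lower count 5 without H-RasV12 replicate 2 or double-line replicate 2. Against GFP the double line had 5 higher and 7 lower (10.9%). The higher count was 1 without GFP replicate 3 or double-line replicate 2 and 2 without double-line replicate 3. For the interaction 2 were higher and 5 lower (6.36%). The higher count was 0 without H-RasV12 replicate 1 or double-line replicate 2 and 1 without GFP replicate 2, H-RasV12 replicate 2 or 3, or KSR1 replicate 2 or 3. The lower count there was 2 without GFP replicate 3 or H-RasV12 replicate 2, 9 without double-line replicate 1, and 3 when replicate 2 of the KSR1 or of the double line was left out. These shares are near or below those of all probe sets given above. Over all probe sets tested, those called higher and lower made up 4.97% and 6.81% for KSR1 against GFP, 8.16% and 6.92% for the double line against KSR1, 7.1% and 7.71% against H-RasV12, 7.71% and 7.93% against GFP, and 4.16% and 3.54% for the interaction. These totals also moved when an array was left out. For KSR1 against GFP, 813 of 6897 were called, 482 without GFP replicate 3 and 512 without KSR1 replicate 2. For the double line against KSR1, calls went from 1040 to 699 without KSR1 replicate 2. Against H-RasV12 they went from 1022 to 721 without H-RasV12 replicate 1, and against GFP from 1079 to 740 without GFP replicate 3. The interaction went from 531 to 339 without H-RasV12 replicate 2 and to 679 without double-line replicate 1.

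Among the other Ras GTPases and the enzymes that anchor them 1 of 12 probe sets was called, for the double line against H-RasV12, where 7.71% of all fell; without GFP replicate 2 another was called, higher in the double line than with GFP. Fnta, the alpha subunit of the farnesyltransferase that lipid-modifies Ras, read 1909, 1656 and 2210.3 with H-RasV12 and 898, 944 and 1364 in the double line, a fall of 0.85 ± 0.21 on the log2 scale (limma adjusted p = 0.0126, 0.0614 at most without H-RasV12 replicate 3 or double-line replicate 2, which end the call). Every double-line array was lower.

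Among KSR1 partners and Raf regulators, which include the 14-3-3 proteins, Hsp90, PP2A and CK2 subunits, 0 of 48 probe sets were called for KSR1 against GFP by limma, where 11.8% of all were, and 3 had an unadjusted p under 0.05. In the double line against KSR1 4 of the 48 rose and 0 fell, near the 8.16% of all that rose, with 2 rising when replicate 2 of either line was left out and 1 without KSR1 replicate 3. Lamtor3, the MEK partner MP1, rose in the double line against KSR1 (785 ± 58.4 to 1495 ± 202, 0.90 ± 0.22, limma adjusted p = 0.0129, 0.0551 without KSR1 replicate 2). Among other kinases of the cascade 6 probe sets of 4 genes were tested, and in the double line against KSR1 1 rose and 2 fell, where 15.1% of all were called. Map3k1, which encodes MEKK1, rose there (170 ± 14.9 to 642 ± 333, 1.63 ± 0.32, limma adjusted p = 0.00292, called without any 1 array). Double-line replicate 1 read 276 for Map3k1, where the other double-line arrays read 929 and 720.2. Both that fell were of Map3k3, which encodes MEKK3: 94947_g_at went from 455 ± 149 to 170 ± 52.9 (-1.29 ± 0.31, limma adjusted p = 0.0109) and 94946_at from 384 ± 131 to 174 ± 23.6 (limma adjusted p = 0.0291). Neither call held when KSR1 replicate 1 or 2, or replicate 2 of the double line, was left out, and 94946_at was not called without double-line replicate 3 either. A further Map3k3 probe set, 104074_at, was tested and was not called in this comparison.

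Among receptors and Ras regulators 5 of 19 probe sets fell in the double line against KSR1, a pair of them of Egfr, and 0 rose, between 4 and 6 falling when 1 array was left out; 6.92% of all probe sets fell there. The epidermal growth factor receptor gene Egfr, through probe set 101840_at, read between 11.1 and 15.2 on the double-line arrays and between 75.2 and 420.2 on the other 9, and its fall against KSR1 was called (limma adjusted p = 0.00119) without a definite size, since the double-line arrays lie under the pseudocount of 23. The other tested Egfr probe set, 101842_g_at, read between 47.0 and 105 on the double-line arrays and between 187 and 578 on the other 9. It fell by 1.65 ± 0.35 against KSR1 (limma adjusted p = 0.00460), and the calls of both probe sets held without any 1 array. Both lay under the filter on every double-line array. They thus entered the test through lines where they are high, and their calls are a description of that. A further Egfr probe set did not pass the filter and was not tested. Rasa1, the GTPase-activating protein that turns Ras off, rose with KSR1 against GFP by 1.07 ± 0.23 (limma adjusted p = 0.00605) and fell in the double line against KSR1 by 1.14 ± 0.23 (limma adjusted p = 0.00303), both called without any 1 array. It read 3155, 1662 and 2998 on the KSR1 arrays and between 924 and 1378 on the other 9.

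Among ERK substrates 5 of 16 probe sets rose with KSR1 against GFP and 0 fell, where 4.97% of all rose, a count of 1 without GFP replicate 3 or KSR1 replicate 2 and of 3 without KSR1 replicate 1. Calls in either direction over all 6897 probe sets went from 813 to 482, 512 and 654 without these arrays, in the same order. Fosl1, the AP-1 protein Fra-1, rose from 640.2 ± 283 to 2698 ± 385 (2.13 ± 0.38, limma adjusted p = 0.00162, called without any 1 array). Stmn1, the microtubule regulator stathmin, fell in the double line from 5329 ± 723 in the KSR1 line to 2484 ± 536 (-1.11 ± 0.20, limma adjusted p = 0.00134), and this call too held without any 1 array. Among Ras effectors Tiam1, an exchange factor for Rac, fell with KSR1 from 295 ± 39.5 to 88.2 ± 49.7 (-1.61 ± 0.35, limma adjusted p = 0.00731, called without any 1 array). Tiam1 was above the filter only on the GFP arrays and H-RasV12 replicate 1 (202). It thus entered the test through lines where it is high, and its call is a description of that. A further probe set of Stmn1 and one of Tiam1 did not pass the filter and were not tested.

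**Figure D4:**
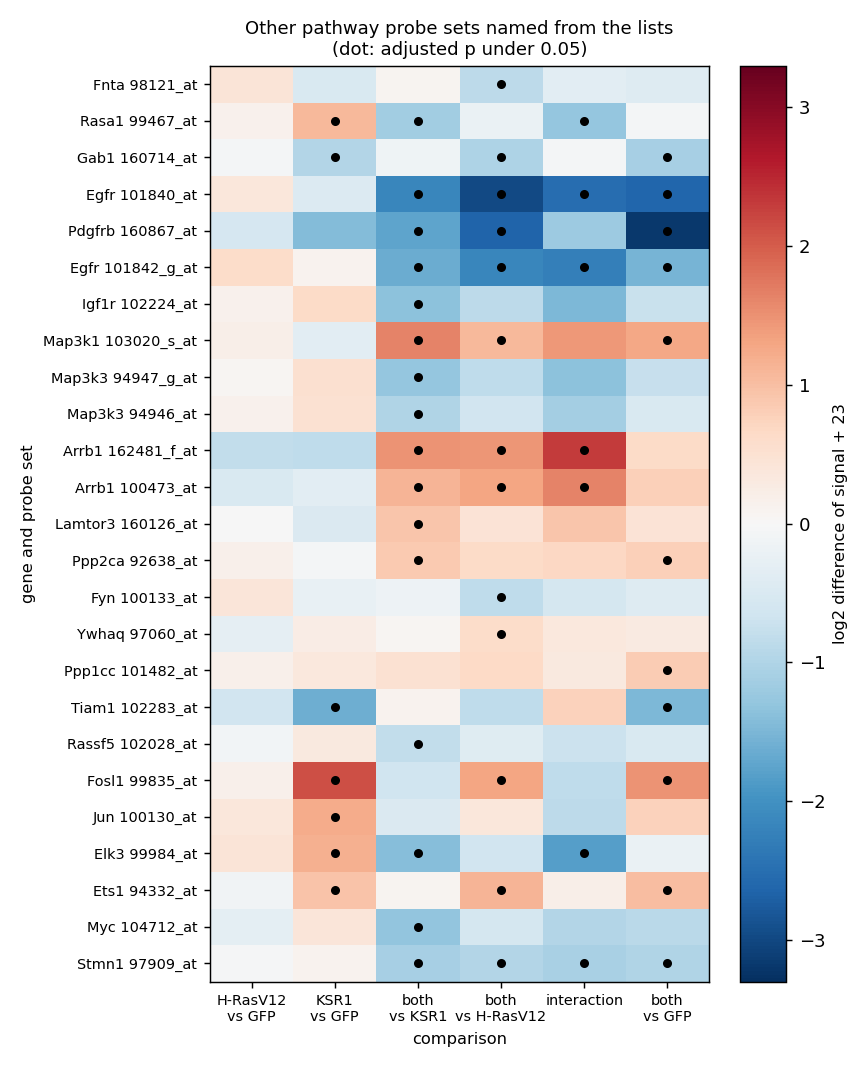
Log2 differences (colour) of the probe sets named from the pathway lists (rows) in the 6 comparisons (columns), with a dot where the adjusted p is under 0.05; "both" is the double line. The column of H-RasV12 against GFP holds no dot, and the rows of Egfr are blue with dots in all 4 columns that involve the double line.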

How the data were processed

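Each deposited value is an intensity on a linear scale, the MAS5 signal of 1 probe set on 1 array, named so in the submitters' processing notes without a version; per the labels, total RNA was labelled with a 1-cycle kit, and each sample went on 1 array. Values were used as deposited, without the 66 control probe sets. Gene names come from the platform annotation, brought up to date by matching its gene identifiers to the GRCm38.p6 gene table; 10833 probe sets had 1 symbol, 396 several and 1193 none. After adding 23 (the 20th percentile, rounded), log2 values of probe sets above 181.4, the median, on at least 3 of 12 arrays were fitted with limma 3.58.1 in R 4.3.3 (4 group means, 8 residual degrees of freedom, intensity trend, two-sided), and 6897 probe sets were tested. The procedure was tested on simulated data. The number of arrays limits the precision. Members and lists were chosen with earlier results of these data known. Named pathway genes come from at most 4 called probe sets per list and comparison, those with the largest changes. Probe and protein sequences were not used here. Alternatives were other pseudocounts, filters and normalizations, a replicate block, array weights, no trend and leaving out each array; fitting only replicates 2 and 3 was chosen after seeing the data.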

Additional observations from a re-analysis of the deposited data

Results flagged for a closer look

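The H-RasV12 response of Nras 94362_at ran upward on every array without KSR1 and downward on every array with it (interaction -0.71, limma adjusted p = 0.0949, short of a call). Among the pathway lists the interaction itself was called for 7 probe sets. It was -2.52 and -2.26 for the Egfr probe sets 101840_at and 101842_g_at (limma adjusted p = 0.00988 and 0.0117), and both calls held without any 1 array. The first of these has no definite size, since 101840_at read under the pseudocount of 23 on the double-line arrays. Both Egfr probe sets entered the test through lines where they are high, and their calls are a description of that. The interaction was -1.83 for the transcription factor gene Elk3 (0.0190, lost without GFP replicate 3, H-RasV12 replicate 2 or KSR1 replicate 2, up to 0.0584) and -1.28 for Rasa1 (limma adjusted p = 0.0242, lost in 7 of 12 fits that leave out an array, up to 0.0644). It was -1.08 for Stmn1 (limma adjusted p = 0.0285, lost in 7 of 12, up to 0.0821). For the beta-arrestin gene Arrb1 it was 2.29 with 162481_f_at (limma adjusted p = 0.0213, lost without H-RasV12 replicate 1 or double-line replicate 2, up to 0.0602) and 1.63 with 100473_at (0.0331, lost in 8 of 12, up to 0.0896).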

How the results depend on the processing

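Over 22 alternatives the 42 results of the 7 tested member probe sets gave 918 values, of which 860 kept their direction and their side of the threshold, 38 changed sign, 15 lost a call and 5 gained one. The Ksr1 92765_s_at rise with KSR1 against GFP kept its call in the 21 alternatives that could be fitted, at 2.35 to 4.03; it was left out, with a count of 0 members called, when 6 arrays had to pass the filter. In the double line against H-RasV12 its difference was 1.42 with a pseudocount of 100 and 2.25 with only replicates 2 and 3, short of the threshold in both, and between 2.28 and 2.77 when 1 array was left out. Its highest value over all alternatives was 3.35. The count of members called there was 1 with the pseudocount of 100 or the 6-array filter, 0 with only replicates 2 and 3, and 1 to 2 when 1 array was left out. For the double line against KSR1 it was 0 to 1 when 1 array was left out. For the double line against GFP it was 0 with no filter, no intensity trend or only replicates 2 and 3, 2 with array weights, and 0 to 2 when 1 array was left out.

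The replicate number as a block gave 2 members called for the double line against GFP, adding Ksr1 92765_s_at (1.70, limma adjusted p = 0.0319), and changed no other member's call. It moved the pathway lists' count there from 12 to 19 and for the interaction from 7 to 11. Over all 6897 probe sets tested it moved the calls from 1079 to 1317 and from 531 to 741 in the same comparisons. Same-numbered arrays of different lines deviated from their group means with correlations from -0.021 to 0.51 (median 0.20), over 0.1 in 13 of 18 pairs. For arrays of different number and line the correlations ran from -0.44 to 0.24 (median -0.13), over 0.1 in 6 of 36 pairs. Of the 12 arrays 10 correlated best with their own number. This is a hint from the data, and the labels do not say what the number stands for.

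None of the 38 changes of sign touched a called value. With quantile normalization Map2k2 became -0.013 for KSR1 against GFP and Nras 160925_at 0.0049 for the double line against KSR1, and with array weights the Nras 160925_at interaction became -0.0093. With only replicates 2 and 3 Araf became 0.062 for KSR1 against GFP, -0.13 for the double line against KSR1, -0.068 against GFP and -0.14 for the interaction. Nras 160925_at became -0.12 for the double line against H-RasV12, -0.15 against GFP and -0.27 for the interaction, and Map2k2 -0.088 against H-RasV12 and -0.13 for the interaction. When 1 array was left out, Araf ranged from -0.11 to 0.25 for H-RasV12 against GFP, and for the double line from -0.30 to 0.20 against H-RasV12 and from -0.18 to 0.31 against GFP, with -0.088 to 0.40 for the interaction. Ksr1 92764_at ranged from -0.091 to 0.26 for KSR1 against GFP and from -0.086 to 0.27 for the double line against KSR1. Map2k2 ranged from -0.039 to 0.12 for KSR1 against GFP, from -0.049 to 0.26 for the double line against H-RasV12 and from -0.083 to 0.23 for the interaction. Nras 160925_at ranged from -0.32 to 0.082 for the double line against KSR1, from -0.13 to 0.27 against GFP and from -0.11 to 0.29 for the interaction. The cause of these changes of sign was not tested. The 95% intervals of the Araf differences together reach from -0.83 to 0.98, and Map2k1 162082_r_at and the lower Ksr1 92765_s_at signals lie near the dimmest values on the arrays.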
